A study of Homo sapiens with 12 samples.

Results

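The interferon response genes are a list of 32 human genes that cells switch on when interferon binds its receptor, or that carry that signal to the nucleus. Their RNA was followed in K562, a cell line from a chronic myeloid leukaemia that carries the BCR-ABL1 fusion kinase, after 24 h with 0.05 µM nilotinib (4 arrays, samples 1 to 4), 0.5 µM imatinib (4 arrays, samples 5 to 8) or the solvent DMSO (4 arrays, samples 9 to 12). Nilotinib (AMN107) and imatinib (STI571) both inhibit the ABL kinase, and their doses differed, so the drugs are set side by side and not ranked by potency. All cells grew in RPMI medium with fetal bovine serum. No label mentions added interferon, and the labels name no virus, no added gene and no deletion. Total RNA was measured on Affymetrix U133 A 2.0 arrays, on which each probe set reads the 3′ end of a transcript. Members were found as the listed genes that a probe set names alone in the array annotation. That gave 30 of the 32 genes, through 40 probe sets, of 11963 genes named in this way. STAT2 and IFI30 are named by no probe set in that annotation and were not analysed here. A gene was read from its probe set with the highest mean. It was tested where the mean over the 12 arrays lay above the 40th percentile of all probe sets, at a signal of 80.6. Of the 30 members 20 lay above this filter, as did 8021 of all genes, and the other 10 members are described from their signals.

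Interferons alpha and beta bind a receptor whose JAK1 and TYK2 kinases phosphorylate STAT proteins. STAT2 then joins IRF9 in a complex that binds a promoter sequence, the interferon-stimulated response element (ISRE). Interferon gamma uses another receptor and a second sequence, the gamma-activated site (GAS), through which IRF1 is induced, and IRF1 and IRF2 can themselves bind the ISRE. The genes downstream block viral entry, degrade or bind viral RNA, tag proteins with ISG15, or load peptides onto MHC class I molecules. Many of them keep a low level of expression with no interferon added.

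The sequences that join these genes can be seen in their promoters. RefSeq windows on GRCh38.p14, from 250 bases before to 50 bases after a start site, were found for 24 of the 32 listed genes. The ISRE core, read as GAAA, any 2 bases and GAAA again on either strand, occurred in the windows of 17 of these 24 genes (70.8%), against 4.38% of the 27303 genes in the table. The GAS letters, TTC, any 3 bases and GAA, which read the same on both strands, occurred in 10 of 24 (41.7%), against 9.38% of all genes. Genes with several start sites have several windows; by window the shares were 68.8% against 3.57% for the ISRE core and 37.5% against 7.66% for GAS. The stretches shown here belong to members that were higher and members that were lower under the drugs, so that both kinds can be compared. Capitals mark the ISRE core or its reverse complement, each stretch is written 5′ to 3′ along the strand of its gene, and overlapping matches form 1 run of capitals.
ISG15 (chr1:1013364-1013419, plus strand): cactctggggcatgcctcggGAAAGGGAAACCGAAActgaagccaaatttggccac
IFI6 (chr1:27672256-27672327, minus strand): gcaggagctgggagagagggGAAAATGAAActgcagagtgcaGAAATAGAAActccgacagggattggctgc
IFIT3 (chr10:89327821-89327904, plus strand): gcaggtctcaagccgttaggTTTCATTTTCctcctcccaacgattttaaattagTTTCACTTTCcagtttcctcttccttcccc
OAS3 (chr12:112938442-112938473, plus strand): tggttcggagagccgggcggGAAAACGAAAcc
IFITM1 (chr11:313980-314029, plus strand): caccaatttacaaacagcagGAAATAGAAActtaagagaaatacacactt
IFITM3 (chr11:320866-320932, minus strand): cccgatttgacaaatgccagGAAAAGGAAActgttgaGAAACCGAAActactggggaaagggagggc
PLSCR1 (chr3:146544657-146544706, minus strand): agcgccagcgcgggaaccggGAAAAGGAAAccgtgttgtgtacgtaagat

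The first 4 genes were higher under both drugs and the last 3 lower under nilotinib. Only called members with an ISRE core upstream of the start site were shown, so its presence in all 7 was fixed by that choice. A match is a description of letters and no measure of binding. Among genes with a window, IFI16, IFI30, IFI35, IRF1, IRF9, OAS1 and STAT2 did not hold the ISRE core in it, and IFI35 and IRF1 were among those that were higher.

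The arrays of the 3 groups differed at low signal, which bears on every dim member. The median signal over all probe sets was 179 ± 12.1 on nilotinib arrays, 142 ± 8.71 on imatinib arrays and 119 ± 2.17 on DMSO arrays (SD, n = 4 each), although the trimmed mean of each array was close to 500.1. Bacterial control probe sets, which no K562 RNA should fill, had medians of 18.2 ± 5.35, 12.2 ± 4.54 and 7.06 ± 1.31 on nilotinib, imatinib and DMSO arrays (SD, n = 4 each). The ratio of 3′ to 5′ signal of actin, a sign of RNA length, was above 3.5 on nilotinib samples 1 and 2 and imatinib samples 5 and 6. Log2 values of arrays in a group correlated at 0.941 to 0.961 for nilotinib, 0.968 to 0.972 for imatinib and 0.976 to 0.981 for DMSO. All 8 erythroid markers with a probe set, among them GATA1, TAL1, KLF1 and the globin HBZ, lay above the filter. Nothing in the labels ties the arrays to separate cultures, and the p-values therefore cover the spread among these arrays alone, which may be technical.

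Under nilotinib, 14 of the 20 tested members changed against DMSO, 10 of them higher and 4 lower. Across all 8021 genes 58.2% changed, 34.7% higher and 23.5% lower. Higher were the transcription factors IRF1, IRF2 and IRF7 and the effectors ISG15, IFI6, IFI35, IFIT3, MX2, OAS3 and TRIM22. IFI6, MX2, OAS3 and TRIM22 had DMSO means below the filter, so they were tested only through the drug arrays. Lower were the membrane proteins IFITM1, IFITM2, IFITM3 and PLSCR1. The members' median log2 fold change was 0.52, against 0.15 over all genes tested.

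Under imatinib, 11 of the 20 changed against DMSO, 9 higher and 2 lower, where 39.4% of all genes changed, 22.0% higher and 17.3% lower. Higher were IRF1, IRF2, IRF7, ISG15, IFI6, IFI35, IFIT3, OAS3 and TRIM22, and lower were IFITM1 and IFITM2. Among the higher, IFI6, OAS3 and TRIM22 were tested only through the drug arrays. The members' median was 0.46, against 0.09 over all genes. The arrays did not overlap between drug and DMSO for 12 of 20 members under nilotinib, where 50.7% of all genes did not overlap, and for 11 of 20 under imatinib, where 39.1% did not. Both drugs were compared with the same 4 DMSO arrays, so the 2 lists are not independent of each other. Calls are limma tests on log2(signal + 16) with Benjamini-Hochberg adjusted p under 0.05 over all 8021 genes, and fold changes on this scale understate changes of dim genes. In RNA from whole cultures, a change in every cell and a change in some of the cells cannot be told apart.

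**Figure D1:**
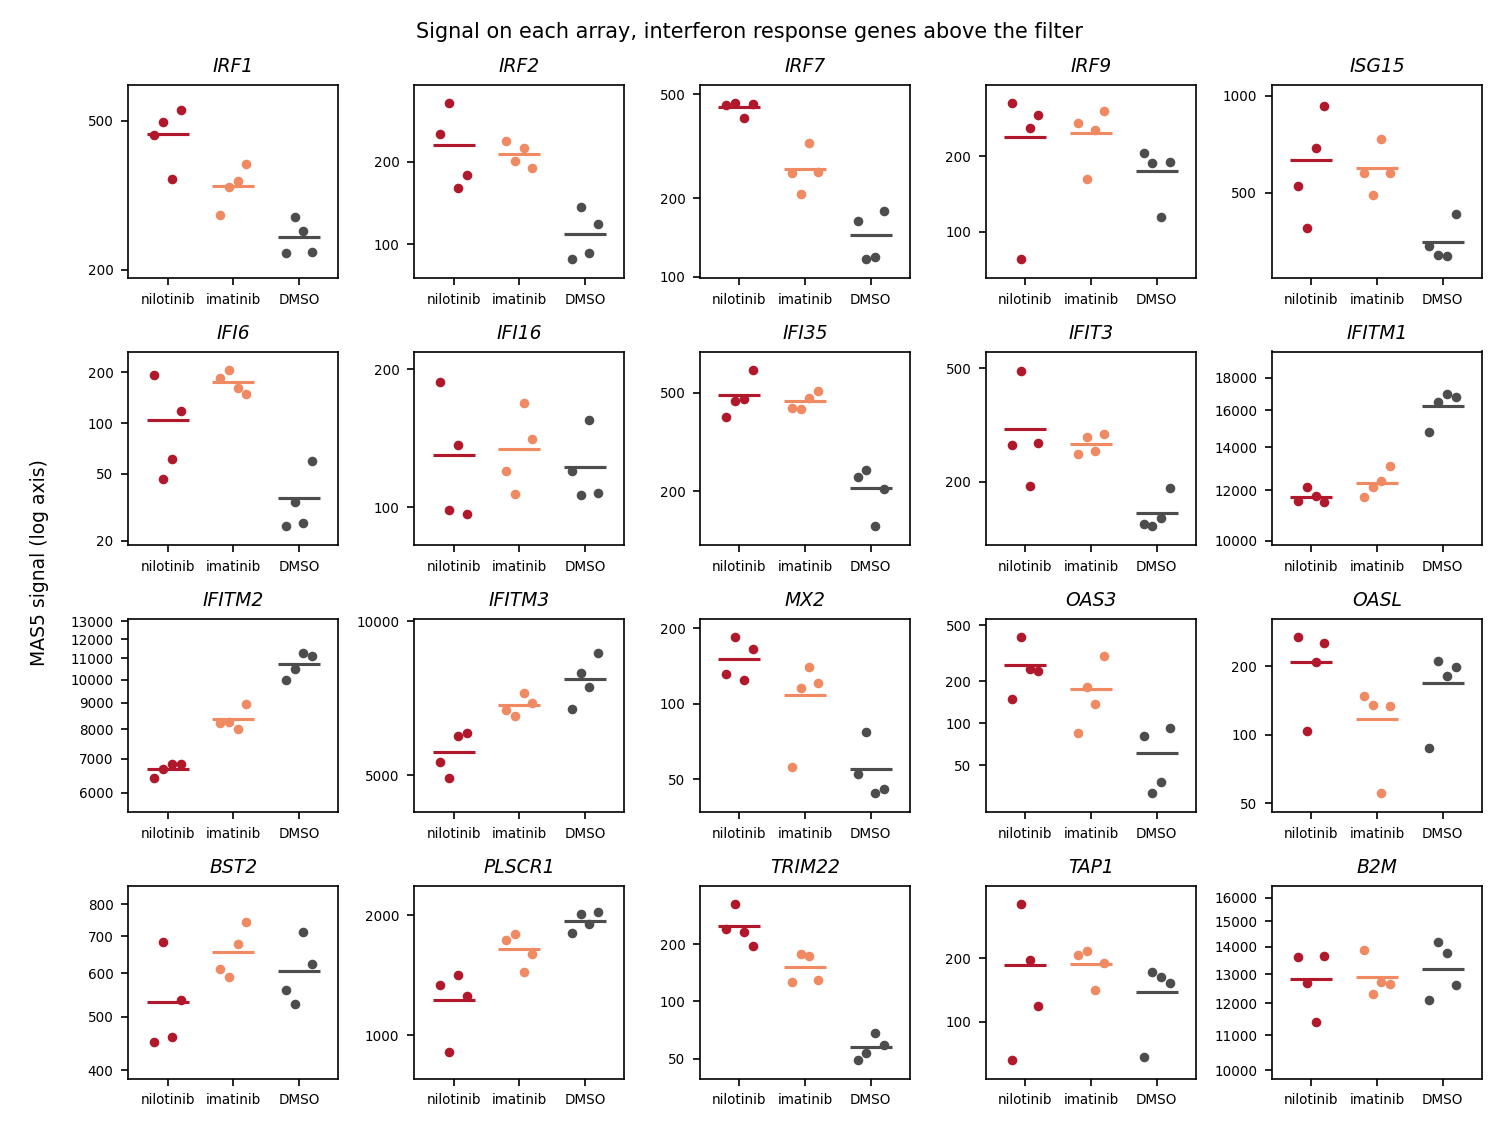
MAS5 signal (log axis, a separate scale in each panel) of the 20 interferon response genes above the filter, 1 point per array and a line at the group mean, for nilotinib, imatinib and DMSO from left to right. The nilotinib and imatinib points of IRF7, IFI35 and TRIM22 lie above all DMSO points, and those of IFITM1, IFITM2 and PLSCR1 lie below all DMSO points.

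Among the transcription factors, IRF7 separated the groups furthest relative to its spread. IRF7, which drives the genes of interferon alpha once it is phosphorylated, had signals of 455, 461, 405 and 458 with nilotinib, 250.4, 208, 326 and 251 with imatinib, and 163, 117, 119 and 179 with DMSO. The 3 groups did not overlap, with nilotinib highest and DMSO lowest. The log2 fold change against DMSO was 1.54 ± 0.18 (SE) under nilotinib (limma, adjusted p = 6.79e-07) and 0.78 ± 0.18 under imatinib (adjusted p = 0.00173).

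IRF1, an activator that interferon gamma induces strongly, had signals of 457, 496, 350.5 and 536 with nilotinib, 281, 333, 346 and 384 with imatinib, and 222, 277, 254 and 223 with DMSO. Both drug groups lay wholly above DMSO, and they overlapped each other. The change was 0.86 ± 0.16 (SE) under nilotinib (limma, adjusted p = 0.000122) and 0.43 ± 0.16 under imatinib (adjusted p = 0.0333). Median centring of the arrays gave 0.34 under nilotinib, which did not pass (adjusted p = 0.0646). The imatinib call was lost when any of imatinib samples 6, 7 and 8 or DMSO samples 9 and 12 was left out, with adjusted p between 0.0569 and 0.0986, with each other scaling of the arrays, and without the filter (0.0571).

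IRF2, which binds the same sites as IRF1 and mostly represses them, had signals of 252, 327, 159.9 and 179 with nilotinib, 238, 201, 224 and 189 with imatinib, and 88.2, 136, 92.7 and 119 with DMSO. The drug arrays lay above the DMSO arrays. The fold change was 0.94 ± 0.23 (SE) under nilotinib (limma, adjusted p = 0.00213) and 0.89 ± 0.23 under imatinib (adjusted p = 0.00515). The nilotinib call was lost with quantile normalization (0.48, adjusted p = 0.109), with cyclic loess (0.49, 0.0865), with median centring (0.42, 0.122) and without the 4 arrays of high actin ratio (0.59, 0.0768).

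IRF9, the subunit that gives the STAT complex its DNA sequence, did not pass the test under either drug. Its signals were 324, 77.9, 257 and 292 with nilotinib, 270, 162, 253 and 303 with imatinib, and 205, 187, 114 and 189 with DMSO. Nilotinib sample 2 stood far below the other nilotinib arrays, and the groups overlapped. The log2 fold change was 0.29 (95% interval -0.39 to 0.97) under nilotinib and 0.47 (-0.22 to 1.15) under imatinib. Without nilotinib sample 2 the nilotinib value was 0.72 and passed the test (limma, adjusted p = 0.0132), and without the 4 arrays of high actin ratio both passed, at 0.64 and 0.65 for nilotinib and imatinib.

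TRIM22, OAS3, IFI6 and MX2 are effectors of low signal. Their DMSO means, 36.0 to 60.9, lay below the filter at 80.6, so these 4 genes were tested only through the drug arrays, on which their means were higher. TRIM22, a ubiquitin ligase that restricts several viruses, had signals of 241, 325, 231 and 196 with nilotinib, 126, 177, 173 and 129 with imatinib, and 49.1, 53.6, 68.3 and 58.7 with DMSO. The 3 groups did not overlap, and nilotinib was highest. The log2 fold change was 1.83 ± 0.24 (SE) under nilotinib (limma, adjusted p = 3.66e-06), a 3.56-fold rise, and 1.18 ± 0.24 under imatinib (adjusted p = 0.000665), a 2.27-fold rise.

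OAS3, which makes the oligoadenylates that switch on RNase L, had signals of 148, 411, 245 and 237 with nilotinib, 85.8, 182, 137 and 301 with imatinib, and 81.7, 31.6, 37.7 and 92.4 with DMSO. The nilotinib arrays lay above all DMSO arrays, while the lowest imatinib array fell within the DMSO range. OAS3 rose by 1.85 ± 0.37 (SE) under nilotinib (limma, adjusted p = 0.000317) and by 1.29 ± 0.37 under imatinib (adjusted p = 0.00896).

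IFI6, a small membrane protein that limits the replication of some RNA viruses, had signals of 192, 46.9, 61.3 and 118 with nilotinib, 184, 206, 161 and 149 with imatinib, and 24.5, 34.1, 25.4 and 59.8 with DMSO. The imatinib arrays were tightly grouped and lay wholly above DMSO, while the nilotinib arrays spread widely and reached into the DMSO range. The change was 1.10 ± 0.38 (SE) under nilotinib (limma, adjusted p = 0.0184) and 1.92 ± 0.38 under imatinib (adjusted p = 0.000475), the largest of the 20 members for that drug. The nilotinib call did not hold without nilotinib sample 1 (0.79, adjusted p = 0.0804), with the 4 arrays of high actin ratio left out (1.02, 0.0625), with a floor of 64 (0.62, 0.11), in a fit of those 2 groups alone (1.10, 0.0621) or with any other scaling (0.49 to 0.58).

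MX2, a GTPase of the nuclear envelope that restricts retroviruses, had signals of 131, 184, 125 and 165 with nilotinib, 56.0, 115, 141 and 121 with imatinib, and 52.6, 77.1, 44.0 and 45.8 with DMSO. Nilotinib lay above DMSO on every array, and imatinib did so except on sample 5. The change was 1.25 ± 0.32 (SE) under nilotinib (limma, adjusted p = 0.00242) and 0.77 under imatinib (95% interval 0.11 to 1.44, adjusted p = 0.0584), which passed without imatinib sample 5 (1.02, adjusted p = 0.015), without DMSO sample 10 (0.91, 0.0467), with the arrays of high actin ratio left out (1.07, 0.0267), with array weights (0.80, 0.035) and without the variance trend (0.0218). Other scalings gave 0.65 to 0.72 under nilotinib and ended that call.

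IFI35, a leucine zipper protein that binds its partner NMI, had signals of 399.8, 464, 469.8 and 616 with nilotinib, 432, 430.5, 478 and 509 with imatinib, and 228, 244, 144 and 205 with DMSO. Both drug groups stood above DMSO with no overlap and covered much the same range. The fold change was 1.19 ± 0.17 (SE) under nilotinib (limma, adjusted p = 6.68e-06) and 1.13 ± 0.17 under imatinib (adjusted p = 1.93e-05).

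ISG15, the ubiquitin-like protein that is attached to newly made proteins in the interferon response, had signals of 526, 388, 689 and 928 with nilotinib, 577, 494, 733 and 576 with imatinib, and 343, 321, 318 and 429.7 with DMSO. Nilotinib sample 2 fell within the DMSO range and the imatinib arrays did not. The change was 0.75 ± 0.20 (SE) under nilotinib (limma, adjusted p = 0.00317) and 0.72 ± 0.20 under imatinib (adjusted p = 0.00659). Median centring of the arrays ended both calls (0.23, adjusted p = 0.325, and 0.50, adjusted p = 0.0508).

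IFIT3, part of a complex that binds viral RNA with foreign ends, had signals of 269, 491, 193 and 274 with nilotinib, 250.5, 287, 256 and 294 with imatinib, and 142, 140.3, 149.99 and 191 with DMSO. All 8 drug arrays lay above the 4 DMSO arrays, though nilotinib sample 3 did so narrowly. The change was 0.84 ± 0.22 (SE) under nilotinib (limma, adjusted p = 0.00321) and 0.75 ± 0.22 under imatinib (adjusted p = 0.0108). Quantile normalization and median centring ended both calls, with 0.48 and 0.32 under nilotinib and 0.54 and 0.53 under imatinib. Cyclic loess (0.49) and leaving out the arrays of high actin ratio (0.53) ended the nilotinib call.

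**Figure D2:**
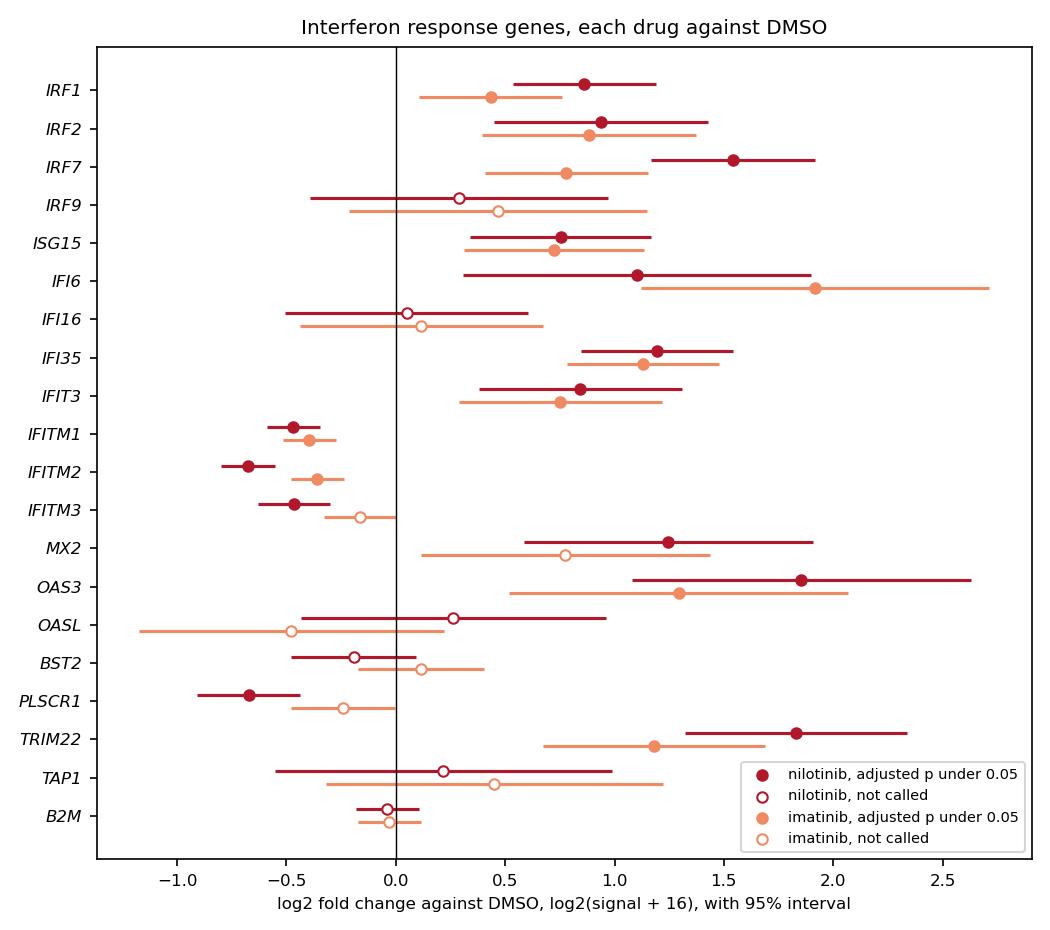
Log2 fold change of each drug against DMSO for the 20 members above the filter, with 95% intervals; nilotinib is drawn above imatinib for each gene, filled points passed the test and open points did not. TRIM22 and OAS3 lie furthest right under nilotinib, at 1.83 and 1.85, IFI6 does so under imatinib, at 1.92, and the IFITM genes and PLSCR1 lie left of zero.

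The interferon-induced transmembrane genes went the other way. IFITM1, IFITM2 and IFITM3 encode short membrane proteins that stop viruses from fusing with the cell, and they stand close together on chromosome 11 in the RefSeq annotation. All 3 lay among the brightest 2005 of the 8021 genes. IFITM2 had signals of 6425, 6691, 6844 and 6824 with nilotinib, 8212, 8253, 8020 and 8940 with imatinib, and 9978, 10497, 11292 and 11127 with DMSO. The 3 groups did not overlap, and nilotinib was lowest. The log2 fold change was -0.68 ± 0.06 (SE) under nilotinib (limma, adjusted p = 1.25e-08) and -0.36 ± 0.06 under imatinib (adjusted p = 6.58e-05).

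IFITM1 had signals of 11524, 12126, 11751 and 11490 with nilotinib, 11694, 12130, 12395 and 13108 with imatinib, and 14776, 16462, 16959 and 16777 with DMSO. Both drug groups lay below every DMSO array and overlapped each other. IFITM1 changed by -0.47 ± 0.06 (SE) under nilotinib (limma, adjusted p = 1.62e-06) and by -0.40 ± 0.06 under imatinib (adjusted p = 1.95e-05).

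IFITM3 had signals of 5316, 4944, 5955 and 6037 with nilotinib, 6711, 6521, 7244 and 6914 with imatinib, and 6745, 7926, 7445 and 8685 with DMSO. The nilotinib arrays lay below all others, while imatinib overlapped DMSO through DMSO sample 9. The change was -0.47 ± 0.08 (SE) under nilotinib (limma, adjusted p = 6.01e-05) and -0.16 under imatinib (95% interval -0.33 to 0.00, adjusted p = 0.109). Without DMSO sample 9 the imatinib value was -0.23 and passed (adjusted p = 0.03), as it did with median centring (-0.39).

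The probe sets of the 3 IFITM genes are of the kinds that can share signal between near-identical transcripts, so their values are not separate measurements of each gene. A further probe set that the annotation assigns to both IFITM2 and IFITM1 had 6627 ± 260 with nilotinib, 7789 ± 394 with imatinib and 9982 ± 811 with DMSO (SD, n = 4 each), differences of -0.59 and -0.35 on the log2 scale for nilotinib and imatinib. The direction of all 3 genes under both drugs was the same with the 3 other scalings, with values from -1.20 to -0.30 under nilotinib and from -0.62 to -0.10 under imatinib.

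PLSCR1, a membrane phospholipid scramblase that interferon induces, also had lower signals, of 1339, 905, 1411 and 1251 with nilotinib, 1737, 1790.1, 1442 and 1601 with imatinib, and 1806, 2013, 1904 and 2035 with DMSO. Neither drug group overlapped DMSO, and nilotinib lay wholly below imatinib. The change was -0.67 ± 0.11 (SE) under nilotinib (limma, adjusted p = 5.48e-05) and -0.24 under imatinib (95% interval -0.48 to -0.00, adjusted p = 0.0995). A second PLSCR1 probe set gave -0.51 under nilotinib, which passed, and -0.39 under imatinib, which did not (adjusted p = 0.0539). With the 4 arrays of high actin ratio left out, the imatinib value was -0.35 and passed, at an adjusted p of 0.00666, and it also passed with median centring (-0.47), with the mean of both probe sets (-0.32) and in a fit of those 2 groups alone.

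Of the remaining members above the filter, IFI16, OASL, BST2, TAP1 and B2M passed the test under neither drug. B2M, the light chain of MHC class I molecules, was the most precisely measured of them, at 12837 ± 1054 with nilotinib, 12893 ± 675 with imatinib and 13173 ± 965 with DMSO (SD, n = 4 each). Its log2 fold change was -0.04 (95% interval -0.18 to 0.11) under nilotinib and -0.03 (-0.17 to 0.12) under imatinib, and median centring, which lowers the drug arrays relative to DMSO, turned both into lower calls (-0.56 and -0.26). A second B2M probe set had 0.12 under nilotinib and 0.14 under imatinib, and was not called.

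BST2, or tetherin, which holds budding viruses at the cell surface, had means of 532 ± 108 with nilotinib, 655 ± 68.6 with imatinib and 605 ± 81.7 with DMSO (SD, n = 4 each). Its change was -0.19 (95% interval -0.48 to 0.09) under nilotinib and 0.11 (-0.17 to 0.40) under imatinib. Without nilotinib sample 2, its highest nilotinib array, the nilotinib value was -0.32 and passed (limma, adjusted p = 0.0434), and with median centring it was -0.72 and passed (6.17e-05).

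TAP1, the peptide transporter of the MHC class I pathway, had signals of 65.9, 360, 196 and 118 with nilotinib, 207, 217, 141 and 189.96 with imatinib, and 68.5, 172, 164 and 152 with DMSO. One array in each of the nilotinib and DMSO groups stood low and the groups overlapped. Its intervals were wide, -0.55 to 0.99 around 0.22 under nilotinib and -0.32 to 1.22 around 0.45 under imatinib.

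IFI16, a sensor of viral DNA, had changes of 0.05 (95% interval -0.51 to 0.60) under nilotinib and 0.12 (-0.44 to 0.67) under imatinib. Another IFI16 probe set above the filter had 0.39 under nilotinib and -0.15 under imatinib, and was not called. OASL, a relative of the OAS enzymes without their activity, had 0.26 (-0.43 to 0.96) under nilotinib and -0.48 (-1.17 to 0.22) under imatinib. Its second probe set, also above the filter, had 0.78 under nilotinib (adjusted p = 0.0552) and -0.15 under imatinib.

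The 8021 genes were split by mean signal into 4 bins of nearly equal size. The members called lower all lay in the brightest bin, and those called higher lay in the other 3. The dimmest bin held IFI6, IFI16, IRF2, MX2, OAS3, OASL, TAP1 and TRIM22, and 5 of these 8 were higher under nilotinib and 4 under imatinib. Of those higher, all except IRF2 were tested only through the drug arrays, so these counts are no independent measure of the members. In that bin 40.6% of all genes were higher and 6.13% lower under nilotinib, with a median of 0.60, and 11.8% were higher and 3.79% lower under imatinib, with a median of 0.25.

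The next bin held IFI35, IFIT3, IRF1, IRF7 and IRF9, of which 4 of 5 were higher under each drug, against 39.2% of genes under nilotinib and 24.5% under imatinib. The bin after it held BST2 and ISG15, of which ISG15 was higher under both drugs, against 32.2% of genes under nilotinib and 25.5% under imatinib. The brightest bin held B2M, IFITM1, IFITM2, IFITM3 and PLSCR1, and 4 of these 5 were lower under nilotinib and 2 under imatinib. There 43.8% of all genes were lower under nilotinib, with a median of -0.12, and 30.3% under imatinib, with a median of -0.01. The higher signal of dim probe sets on drug arrays moves with the higher members, and its part in their fold changes was not tested.

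**Figure D3:**
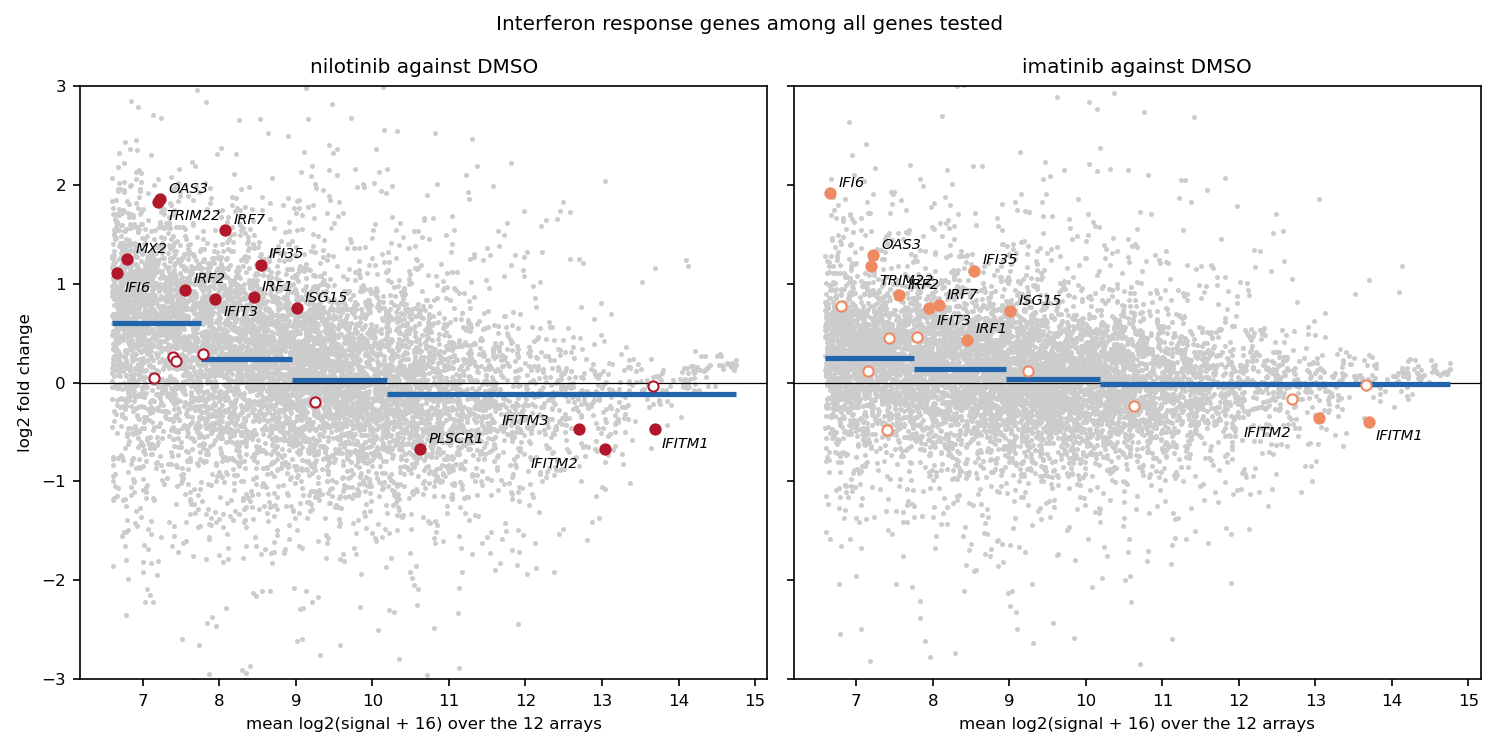
Log2 fold change (vertical axis) against mean log2(signal + 16) over the 12 arrays for all 8021 genes (grey), under nilotinib (left) and imatinib (right), with the median of each of 4 bins of genes by signal as a blue bar. Members are coloured, filled where they passed the test and open where not; 22 genes under nilotinib and 18 under imatinib lie beyond 3 in either direction and outside the axes. Most higher members lie in the 2 dimmer bins, where the nilotinib medians are 0.60 and 0.24, and the lower IFITM genes and PLSCR1 lie in the brightest.

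Scaling of the arrays changed how many members counted as higher. The values were used as deposited, and centring every array on its median turned the median of all genes negative, at -0.37 under nilotinib and -0.13 under imatinib. The members' median then was -0.00 under nilotinib and 0.23 under imatinib. With median centring 4 members were higher and 6 lower under nilotinib, and 6 were higher and 5 lower under imatinib. Over all genes median centring called 831 higher and 3947 lower under nilotinib, against 2781 and 1885 with the deposited scale, and 820 higher and 2276 lower under imatinib, against 1767 and 1390. Quantile normalization called 1982 higher and 2076 lower under nilotinib, and cyclic loess 2028 and 2081.

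IRF7, IFI35, OAS3 and TRIM22 stayed higher than DMSO and IFITM1 and IFITM2 stayed lower, each past the test, under both drugs in every alternative in which they were measured. Under imatinib this also held for IRF2 and IFI6, and under nilotinib for IFITM3 and PLSCR1. With median centring, IRF7 changed by 1.02 and 0.55, IFI35 by 0.67 and 0.91, OAS3 by 1.33 and 1.07, and TRIM22 by 1.31 and 0.96, under nilotinib and imatinib in turn.

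**Figure D4:**
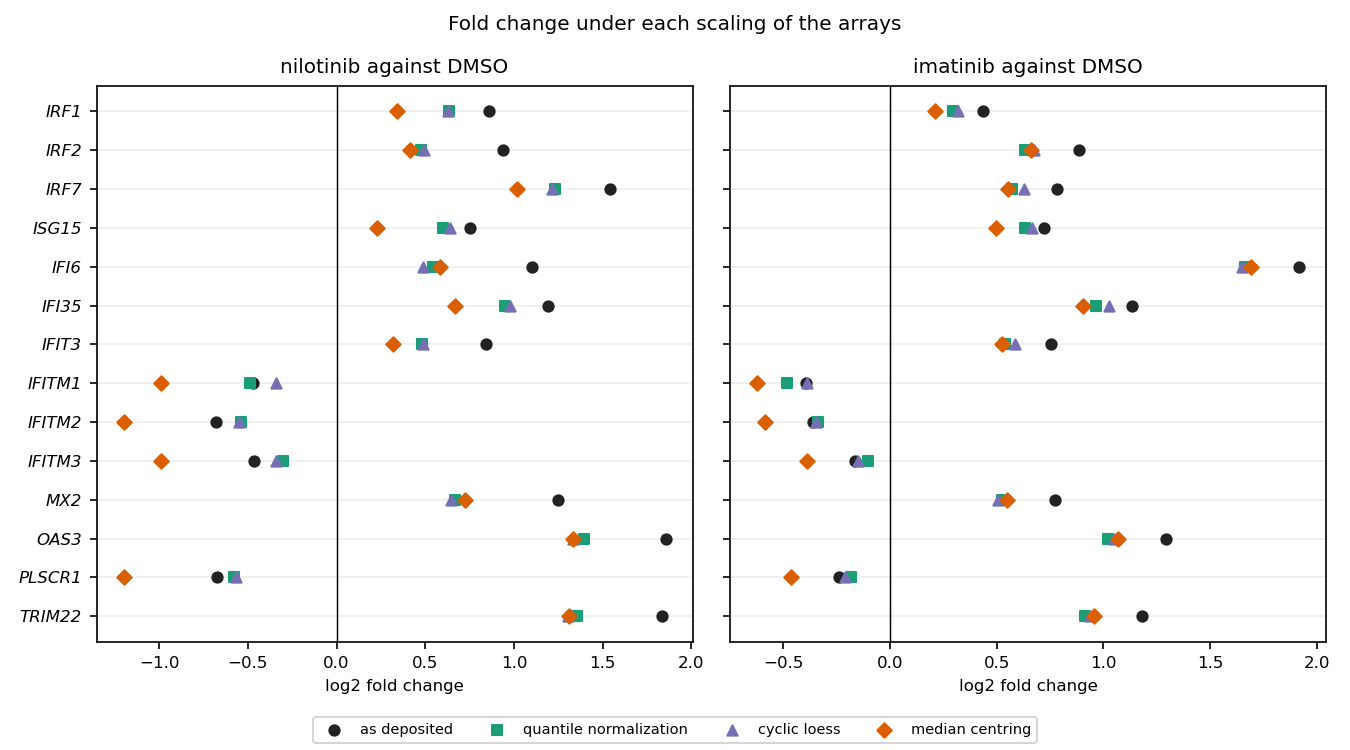
Log2 fold change against DMSO of the 14 members called under at least 1 drug, with the values as deposited and after 3 other scalings of the arrays, under nilotinib (left) and imatinib (right). Every point keeps its side of zero, and for the IFITM genes and PLSCR1 median centring gives the points furthest to the left.

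The 10 members below the filter were ISG20, IFI27, IFI44, IFI44L, IFIT1, IFIT2, IFIT5, MX1, OAS1 and OAS2. The median of their signals was 76.8 ± 37.9 on nilotinib arrays, 31.7 ± 7.03 on imatinib arrays and 28.2 ± 11.5 on DMSO arrays (SD, n = 4 each). Over all genes below the filter the same median was 40.5 ± 5.97, 28.6 ± 1.41 and 21.9 ± 1.73 for nilotinib, imatinib and DMSO. The nilotinib arrays disagreed with each other, with 26.0 on sample 1 and 112.6 on sample 2.

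The other OAS enzymes and MX1 had the clearest pattern among these dim genes. OAS1 had signals of 99.7, 234, 104 and 105 with nilotinib, 14.5, 83.6, 37.7 and 47.1 with imatinib, and 27.8, 14.6, 5.14 and 82.4 with DMSO. OAS2 had signals of 136, 206, 134 and 161 with nilotinib, 14.6, 73.9, 99.5 and 70.3 with imatinib, and 30.7, 49.6, 60.7 and 68.4 with DMSO. For both genes the nilotinib arrays lay above all the others, and imatinib overlapped DMSO.

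MX1, a GTPase that traps viral nucleoproteins, had signals of 19.0, 122, 69.6 and 81.5 with nilotinib, 53.2, 31.0, 27.4 and 73.6 with imatinib, and 24.6, 8.97, 6.17 and 10.5 with DMSO. The imatinib arrays lay above DMSO, and nilotinib sample 1 did not. In a fit without the filter, OAS1 (1.81), OAS2 (1.37), MX1 (1.52), IFI44 (1.65) and IFIT5 (1.10) passed the test as higher under nilotinib, and none of the 10 passed under imatinib, where MX1 was the only one with an unadjusted limma p under 0.05. For MX1 under imatinib the value was 1.10 (95% interval 0.25 to 1.96, limma, adjusted p = 0.0556). In that fit 19 of 30 members passed under nilotinib and 10 of 30 under imatinib, where 46.2% and 25.3% of all 11963 genes did. Second probe sets under nilotinib had 0.67 for OAS1, 0.67 for OAS2, 0.64 for IFIT5 and 0.59 for IFI44, and were not tested. The 10 dim genes were not fitted under other scalings or with arrays left out.

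**Figure D5:**
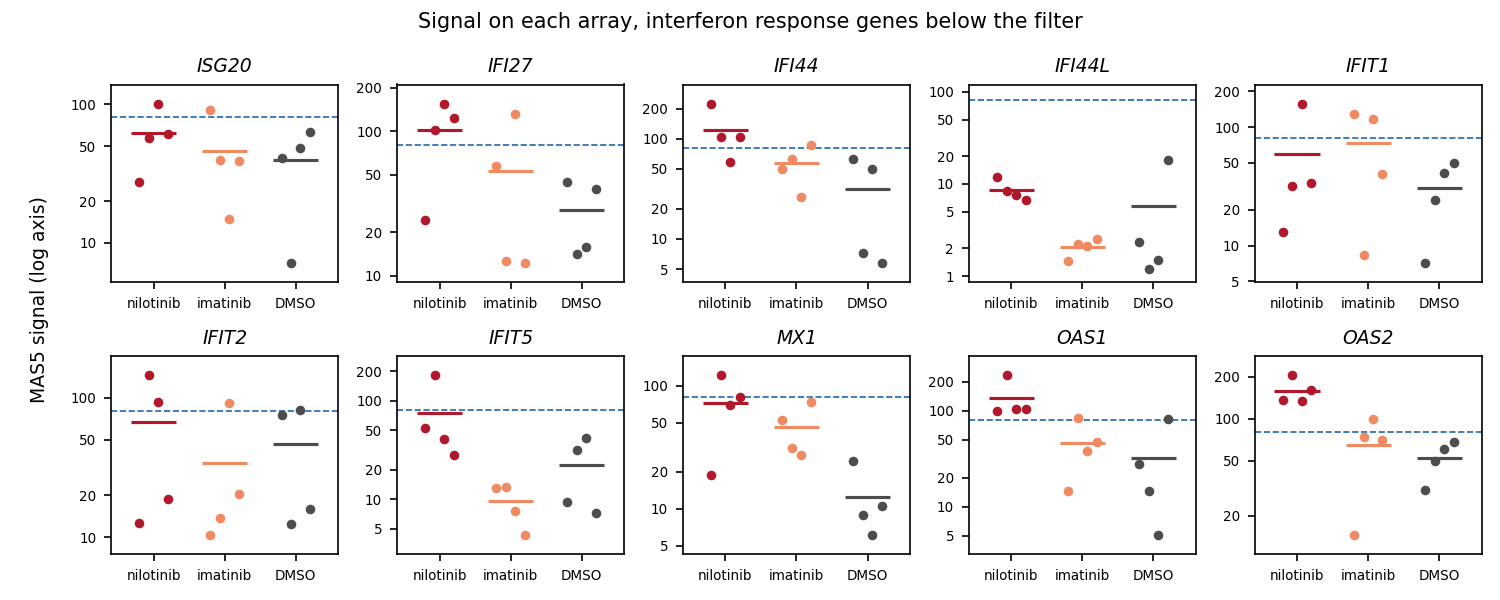
MAS5 signal (log axis, a separate scale in each panel) of the 10 members below the filter, 1 point per array and a line at the group mean, for nilotinib, imatinib and DMSO from left to right; the dashed line marks the filter at 80.6. OAS1 and OAS2 are above the dashed line on all 4 nilotinib arrays, while most other points of these genes lie below it.

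Set directly against imatinib, nilotinib gave 4 calls among the 20 members, 1 higher and 3 lower, where 14.0% of all genes were called, 5.82% higher and 8.22% lower. The doses were 0.05 µM nilotinib and 0.5 µM imatinib, so the difference is one between these treatments. IRF7 was higher with nilotinib by 0.76 ± 0.18 (SE, limma, adjusted p = 0.00923). Lower with nilotinib were IFITM2, with a log2 difference of -0.32 ± 0.06 (adjusted p = 0.00178), IFITM3, with -0.30 ± 0.08 (0.0164), and PLSCR1, with -0.43 ± 0.11 (0.0166). These 3 lay in the brightest bin of genes by signal, where 23.2% of all genes were lower with nilotinib than with imatinib. In the bin of IRF7 5.94% were higher. The second PLSCR1 probe set gave -0.12, which was not called. The arrays did not overlap for these 4 genes and TRIM22, 5 of 20 where 18.0% of all genes did not. The members' median was 0.01, against 0.05 over all genes.

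IRF7 and IFITM2 passed with any single array left out. Without nilotinib samples 1 and 2 and imatinib samples 5 and 6, which had high actin ratios, none of the 4 passed, with values of 0.56 for IRF7, -0.31 for IFITM2, -0.24 for IFITM3 and -0.19 for PLSCR1. The IFITM3 call was also lost without nilotinib sample 2 (-0.25, limma, adjusted p = 0.0568), with quantile normalization (-0.20, 0.0759), with cyclic loess (-0.19, 0.103) and without the variance trend (0.068). The PLSCR1 call was also lost without imatinib sample 6 (-0.39, limma, adjusted p = 0.0565), with the mean of its probe sets (-0.28, 0.115) and without the variance trend (0.0584). OASL and BST2 passed without nilotinib sample 2, at 1.02 and -0.43, and IRF1 passed without nilotinib sample 3, at 0.55. BST2 also passed with median centring (-0.60), OASL with the mean of its probe sets (0.83) and TRIM22 without the variance trend (0.65).

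For members without a call the difference between the drug treatments, on the deposited scale, was 0.03 (95% interval -0.38 to 0.44) for ISG15, 0.06 (-0.29 to 0.41) for IFI35, -0.07 (-0.19 to 0.05) for IFITM1 and -0.01 (-0.15 to 0.14) for B2M. For TRIM22 it was 0.65 (0.14 to 1.16, limma, adjusted p = 0.078), and for IFI6 -0.81 (-1.61 to -0.02, adjusted p = 0.151). With median centring IFITM1 (-0.37), B2M (-0.31) and IFI6 (-1.11) passed as lower with nilotinib, so these intervals hold for the deposited scale and do not show that the treatments act alike on these genes.

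The wider pathway was described through lists chosen with earlier results of these data known. Of 17 genes of receptors and signalling, all above the filter, 10 were higher and 3 lower under nilotinib, and 4 higher and 5 lower under imatinib, with medians of 0.38 and 0.10. That is 76.5% called under nilotinib and 52.9% under imatinib, where 58.2% and 39.4% of all genes were called. IFNAR1, a chain of the receptor for interferons alpha and beta, was higher by 1.04 ± 0.27 (SE) under nilotinib and 0.81 ± 0.27 under imatinib, and the receptor kinase TYK2 by 0.81 ± 0.13 and 0.85 ± 0.13. IFNGR1, the ligand-binding chain of the interferon gamma receptor, was lower, with log2 fold changes of -0.64 ± 0.08 under nilotinib and -0.73 ± 0.08 under imatinib. A second IFNGR1 probe set gave -0.16 under nilotinib, which was not called, and -0.53 under imatinib, which was. The DMSO mean of IFNAR1, 71.8, lay below the filter, so IFNAR1 was tested only through the drug arrays. The IFNAR1 calls were lost with each other scaling, the imatinib call also without imatinib sample 7 or 8 or DMSO sample 9 or 11, and the nilotinib call with the arrays of high actin ratio left out. The TYK2 call under nilotinib was lost with median centring (0.29).

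SOCS1, a feedback inhibitor of JAK kinases, had 383 ± 12.5 with nilotinib, 277 ± 54.1 with imatinib and 1263 ± 326 with DMSO (SD, n = 4 each). Its log2 fold change was -1.65 ± 0.16 (SE) under nilotinib (limma, adjusted p = 5.38e-08) and -2.11 ± 0.16 under imatinib (adjusted p = 2.77e-09). Its 4 probe sets disagreed, since the other above the filter had 0.24 and -0.23 under nilotinib and imatinib and was not called. Below the filter, another had -1.53 and -1.93 under nilotinib and imatinib, and the last had 0.11 and -0.13. PTPN6, a phosphatase that dampens cytokine receptors, was higher under nilotinib (1.18 ± 0.22).

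Of 14 tested sensors and induction factors, 7 were higher and 0 lower under nilotinib and 5 higher and 0 lower under imatinib, with medians of 0.48 and 0.33. The 7 of 14 called under nilotinib and 5 of 14 (35.7%) under imatinib were below the 58.2% and 39.4% of all genes called in either direction. They were above the 34.7% and 22.0% of all genes called higher. The RNA sensor IFIH1 was higher by 1.20 ± 0.41 (SE) under imatinib (limma, adjusted p = 0.0255), a call lost with each other scaling and without imatinib sample 5 or 8 or DMSO sample 9 or 12, and had 0.51 under nilotinib. Its downstream adaptor MAVS and the kinase TBK1 were higher under both drugs, by 0.46 and 0.51 under nilotinib, where median centring gave -0.068 and -0.012, and by 0.56 and 0.40 under imatinib. Median centring also ended both imatinib calls (0.34 and 0.17), and quantile normalization and cyclic loess ended the nilotinib call of MAVS (0.23 and 0.25). The lymphoid factors IRF4 and IRF8 were higher under nilotinib, by 1.23 ± 0.24 and 1.09 ± 0.29, and the IRF8 call was lost with each other scaling. The DMSO means of IFIH1 and IRF8, 70.9 and 72.9, lay below the filter, so both were tested only through the drug arrays. Of the 14 interferon genes listed, 2 lay above the filter. The probe set named for IFNA14, which can share signal with near-identical sequences, was called higher under nilotinib (1.05 ± 0.24). It had 220 ± 46.5, against 97.3 ± 16.1 with DMSO (SD, n = 4 each), and whether it reads interferon RNA was not tested. That call was lost with each other scaling.

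Of 13 tested genes of class I antigen presentation, 4 were higher and 1 lower under nilotinib and 5 higher and 0 lower under imatinib, with medians of 0.43 and 0.23. The share called was 38.5% under each drug, against 58.2% of all genes under nilotinib and 39.4% under imatinib in either direction. Of all genes 34.7% were higher and 23.5% lower under nilotinib, and 22.0% higher and 17.3% lower under imatinib. TAPBP, or tapasin, which bridges TAP1 and class I molecules, was higher by 1.36 ± 0.16 (SE) under nilotinib and 1.11 ± 0.16 under imatinib. The peptide-trimming enzyme ERAP1 was higher by 0.66 ± 0.09 under nilotinib, where another of its probe sets had -0.041, and by 0.68 ± 0.09 under imatinib. Its nilotinib call was lost with median centring (0.14), and the imatinib call with that other probe set (0.23). A further ERAP1 probe set above the filter was called higher under both drugs, with 0.77 under nilotinib and 0.72 under imatinib. Those below the filter had 1.35 and 1.09 under nilotinib and were not tested. Among 11 class II genes and interferon gamma targets, 3 were higher and 2 lower under nilotinib and 2 higher and 1 lower under imatinib, 45.5% and 27.3% called, again below the shares of all genes. SOCS1 stands in this list and in that of receptors and signalling, and is counted as lower in both. HLA-DMB, which helps load class II molecules, was higher by 0.94 ± 0.17 under nilotinib and 0.67 ± 0.17 under imatinib.

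Of 22 further interferon-stimulated genes tested, 10 were higher and 4 lower under nilotinib and 8 higher and 3 lower under imatinib, with medians of 0.44 and 0.24. In all 14 of 22 (63.6%) were called under nilotinib and 11 of 22 under imatinib, against 58.2% and 39.4% of all genes. RSAD2, or viperin, an antiviral enzyme, had a signal of 1096 ± 92.0 with nilotinib, 975 ± 70.8 with imatinib and 293 ± 23.7 with DMSO (SD, n = 4 each). Its fold change was 1.85 ± 0.10 (SE) under nilotinib (limma, adjusted p = 1.93e-11) and 1.68 ± 0.10 under imatinib (adjusted p = 1.35e-10), and it passed under all 23 alternatives of each comparison. LGALS3BP, a secreted glycoprotein, was higher by 1.20 ± 0.20 and 1.30 ± 0.20 under nilotinib and imatinib, and the cytidine deaminase APOBEC3G by 1.31 ± 0.20 and 1.09 ± 0.20. LY6E, a surface protein, was lower under nilotinib, at -1.81 ± 0.35 (adjusted p = 0.000215), and had -0.76 under imatinib (adjusted p = 0.0936).

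Markers of other cells were measured beside these groups. Sums were taken over all markers with a probe set. For the 9 lymphocyte markers, 6 of them above the filter, the sum was 769 to 1499 on nilotinib arrays. It was 626 to 912 on imatinib arrays and 754 to 842 on DMSO arrays. Of the 6, CD79B and CD2 were higher under nilotinib (1.69 and 1.07) and none lower, with CD3D at -0.57 and CD4 at -0.17. The DMSO means of CD79B and CD2, 55.6 and 63.6, lay below the filter, so both were tested only through the drug arrays. CD3D was lower under imatinib (-1.08). For the 8 monocyte markers, 2 of them above the filter, the sums were 2943 to 3785, 2900.3 to 3688 and 3691 to 4219 on nilotinib, imatinib and DMSO arrays. For the 8 fibroblast markers, 3 of them above the filter, they were 991 to 1126, 594 to 924 and 422 to 717. The erythroid markers summed to 77145 to 86210, 69466 to 76952 and 40391 to 45813. The part of these shifts in the interferon genes was not tested.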

How the data were processed

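Biotin-labelled RNA of 12 K562 samples was read on Affymetrix U133 A 2.0 arrays, per the labels. The authors deposited linear intensity signals, and the submitters' processing notes name MAS5 without a version. The trimmed means show that the deposited intensity values had been scaled to a common level. Detection calls were not used here.

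Groups came from the sample titles, and 0 columns were left unmapped. No 2 arrays were identical. Of 22277 probe sets, 62 controls were left out, 19064 named 1 gene, 1043 several and 2108 none in the platform annotation, and only the first kind was tested. All listed symbols were current. Values were taken as log2(signal + 16), and genes whose mean was below the 40th percentile were dropped. The probe set with the highest mean stood for its gene. One mean per group was fitted to all 12 arrays with limma 3.58.1 in R 4.3.3, with a variance trend, 9 residual degrees of freedom and Benjamini-Hochberg adjustment within each comparison, and the code was tested on simulated data. The number of arrays limits the precision, with a median standard error of 0.146 over all fitted log2 fold changes. Alternatives were other pseudocounts, a floor, filters, scalings, probe set rules, variance models, array weights, 2-group fits, omission of arrays of high actin ratio and omission of each array in turn. Those for the pathway lists were added after the data had been seen.

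All members are accounted for. From each wider list up to 4 genes per comparison could be named, taken by size of change from the called genes whose arrays did not overlap, and values outside this rule are given beside a named gene. The members and lists were chosen with earlier results of these data known. Promoter letters came from RefSeq windows on GRCh38.p14, and the annotation of the arrays names no build. Plots used Python 3.11.15 with matplotlib 3.10.9.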

Additional observations from a re-analysis of the deposited data

Results flagged for a closer look

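In 90 groups of 4 arrays, 1 group for each member and treatment, 7 had a single array far from the other 3 by Dixon's criterion, and chance alone marks about 1 in 20, or 5%, of groups. For IRF7, nilotinib sample 3 had 405.21, against 455 to 461 on the other nilotinib arrays. For IRF9, nilotinib sample 2 had 77.933, against 257 to 324, and DMSO sample 11 had 114.35, against 187 to 205. For OAS1, nilotinib sample 2 had 233.86, against 99.7 to 105. For IFI44L, DMSO sample 12 had 18.143, against 1.19 to 2.35. For OASL, imatinib sample 7 had 55.465, against 134 to 148. For TAP1, DMSO sample 9 had 68.459, against 152 to 172. Nilotinib sample 2 also had the highest actin ratio of the 12 arrays, 5.49, and the highest median of genes below the filter, 49.3.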

How the results depend on the processing

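No paired analysis was possible because the sample numbers run on from 1 to 12 and no number is shared between groups. No call of a member changed direction. Leaving out each array in turn gave 13 to 16 members called under nilotinib, 10 to 12 under imatinib and 3 to 5 between the drugs, and over all genes 4284 to 4594, 2763 to 2997 and 694 to 1052; 694 was the count without imatinib sample 6, against 1126. A filter at the 60th percentile left 10 members, of which 8 were called under nilotinib and 6 under imatinib, where 63.2% and 50.2% of 5700 genes were. With probe sets of the plainest kind only, 9 members and 4936 genes were tested, of which 6 members and 2796 genes were called under nilotinib, 5 and 1802 under imatinib, and 0 and 586 between the drugs, with 4 members at an unadjusted limma p under 0.05. Of those 4936 genes 56.6%, 36.5% and 11.9% were called in these comparisons, against 58.2%, 39.4% and 14.0% of 8021. Median centring gave 8 members (1 higher, 7 lower) and 2722 genes (76 higher, 2646 lower) between the drugs, against 467 and 659 with the deposited scale. Without the arrays of high actin ratio, 0 members, 5 at an unadjusted p under 0.05, and 414 genes were called between the drugs. Pathway genes that reversed under nilotinib with median centring were ADAR (-0.18), HLA-E (-0.088), MAVS (-0.068), PSMB10 (-0.32) and TBK1 (-0.012), and with the plainest probe sets CALR (0.44) and ERAP1 (-0.041). Between the drugs ADAR (-0.29) and CREBBP (-0.0027) reversed with median centring, and CALR (0.18) and KPNA1 (-0.21) with the plainest probe sets. The cause of the shifts with scaling and array omission was not tested.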
